A study of Homo sapiens with 12 samples.

Results

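The early response to GSK591 was read in SUDHL6 cells after 24 h of treatment. SUDHL6 is an established human line of germinal-centre-type diffuse large B-cell lymphoma, and GSK591 is a compound that blocks PRMT5, an arginine methyltransferase. The 24 h vehicle group (0.01% DMSO) and the 24 h GSK591 group (200 nM) hold 3 libraries each, 6 of the 12 libraries in the series, and the other 6 are the same treatments at 96 h. All cells grew in the same medium with serum, and poly(A) RNA was sequenced. Of 23368 gene symbols in the 24 h count table, 11317 reached 1 CPM (read counts scaled to a common library size) in at least 3 of the 6 libraries and were tested. Nothing in the labels ties the libraries to separate cultures, and the p-values therefore measure a spread that may be technical.

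PRMT5, working with its partner WDR77, places symmetric dimethyl marks on arginines of histones, of the Sm proteins that form the core of the spliceosomal particles, and of many other RNA-binding proteins. In germinal centre B cells the repressor BCL6 holds back plasma cell differentiation and DNA damage checkpoints while the cells divide rapidly. The series title links PRMT5 to BCL6, to germinal centre formation and to lymphoma cell survival, and the 24 h comparison asks which transcripts had moved early after the enzyme was inhibited.

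The 3 small nucleolar RNAs printed here were higher in GSK591 libraries. In their class 14 of 105 tested symbols were called higher and 1 lower. SNORD43, among the 14, reached 1 CPM in GSK591 libraries alone and so was tested only through the group where it is high. Of the 104 symbols that reached 1 CPM in libraries of both groups, 13 were higher and 1 lower. The printed RNAs are box C/D RNAs, which guide methylation of ribosomal RNA. Their conserved box C (TGATGA) and box D (CTGA) are in capitals in the GENCODE sequences.
SNORD104: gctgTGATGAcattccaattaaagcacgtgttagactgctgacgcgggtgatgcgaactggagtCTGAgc
SNORD43: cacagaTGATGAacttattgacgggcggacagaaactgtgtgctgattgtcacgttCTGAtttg
SNORD96A: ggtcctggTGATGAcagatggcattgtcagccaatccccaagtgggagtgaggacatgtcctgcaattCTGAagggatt
SNORD104 lies at chr17:64146083-64146152 on the plus strand of GRCh38, within SNHG25. SNORD43 lies at chr22:39319050-39319113 on the minus strand, within the ribosomal protein gene RPL3. SNORD96A lies at chr5:181241814-181241892 on the minus strand, within RACK1.

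The 6 libraries held 49933469 to 57925196 counts each, and the gene with the most counts, EEF1A1, took 1.52% to 1.59% of each. Within a group, pairs of libraries differed more than counting noise (chi-square per degree of freedom 2.20 to 3.27), so none was a repeat deposit. The biological coefficient of variation was 2.34%, which is low and lets small changes pass the test. The 8 B cell markers summed to 7266 to 7392 CPM in vehicle and 7270 to 7279 CPM in GSK591 libraries, and the 8 germinal centre markers to 1244 to 1304 and 1316 to 1376 CPM. Markers of T, NK, myeloid, endothelial, epithelial, erythroid and fibroblast cells summed to at most 0.410 CPM for any type in any library, with CD3D, S100A8, EPCAM, CDH5 and COL1A2 at 0 in all 6.

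A gene is called when its adjusted p in edgeR's quasi-likelihood test is under 0.05 (Benjamini-Hochberg over all 11317 genes). By that rule 1937 genes were called, 17.1% of those tested, with 965 higher (8.53%) and 972 lower (8.59%) in GSK591 cells. Among called genes the median absolute log2 fold change was 0.14. In 331 called genes the change was at least 1.2-fold, and 271 of these were lower. In 22 it was at least 1.5-fold, and 19 of these were lower. The edgeR test against a null interval of 1.1-fold kept 122 genes (1.08%), 31 higher and 91 lower. Libraries of the 2 groups did not overlap in 34.2% of all tested genes.

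These counts leaned on single libraries and on the estimate of spread. The number called was 973 without GSK591 library 1, 1033 without vehicle library 2 and 1036 without GSK591 library 3. When the spread was estimated over all 12 libraries of the series, 33 genes were called. Scaling by library size alone gave 575 higher and 1228 lower, and upper-quartile scaling gave 558 higher and 1403 lower, against 967 and 972 with DESeq2 size factors, so the even split depends on the scaling.

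Rises and falls sat at different read levels. Of the 1684 genes with an average log2 CPM of 7 or more, 19.5% were called higher and 6.06% lower. Between 5 and 7 the shares were 11.8% and 8.10% of 4035 genes, and between 3 and 5 they were 3.81% and 10.7% of 3122 genes. Between 1 and 3, 1.44% of 1733 genes were called higher and 9.23% lower. Changes of called genes were larger at low counts, with a median log2 fold change of -0.36 for falls and 0.31 for rises between 1 and 3, against -0.10 and 0.10 at 7 or more. A gene that reached 1 CPM in the libraries of 1 group alone had to differ to be tested, which holds for 3 genes through GSK591 (2 called higher) and 23 through vehicle (11 called lower). The counts of members given below are read against these shares.

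**Figure D1:**
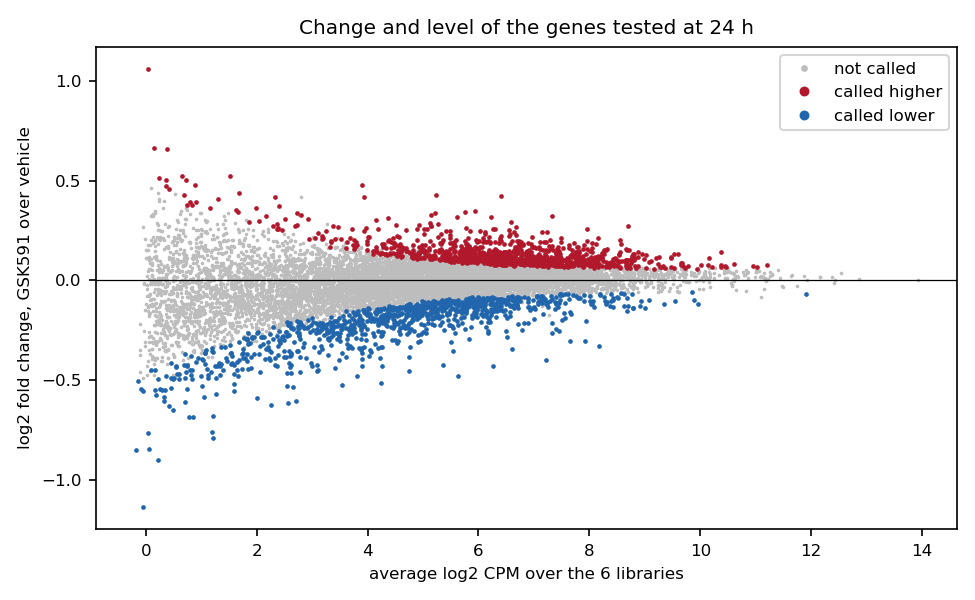
Change and level of the 11317 genes tested at 24 h: the x axis is the average log2 CPM over the 6 libraries and the y axis the log2 fold change of GSK591 over vehicle, with genes called higher in red, lower in blue and not called in grey. Most genes called higher lie to the right, with changes under 0.2, and the larger changes at low counts are mostly falls.

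The mRNA of the target did not pass the test. PRMT5 stood at 129, 131 and 122 CPM in vehicle and at 129, 128 and 126 CPM in GSK591 libraries, so the groups overlapped (log2 fold change 0.00 ± 0.03 SE, adjusted p = 0.993). An inhibitor of the enzyme need not change its transcript, so this level does not check the treatment labels. WDR77, the partner that PRMT5 needs for activity, read 150, 151 and 152 CPM against 144, 147 and 144 CPM (-0.06 ± 0.02, adjusted p = 0.0982). RIOK1, an adaptor that brings substrates to PRMT5, was the 1 gene called among the 5 methylosome genes, at 121, 122 and 118 CPM against 127, 130 and 131 CPM (0.11 ± 0.03, adjusted p = 0.00819).

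Of the other genes tied to the study's question, MDM2 alone passed the test. BCL6 read 425, 423 and 426 CPM in vehicle and 438, 434 and 433 CPM in GSK591 libraries, which do not overlap but did not pass (0.03 ± 0.02, adjusted p = 0.234). MYC, a driver of growth, was at 0.05 ± 0.03 (adjusted p = 0.193), and CDKN1A, an inhibitor of cyclin-dependent kinases, at -0.13 ± 0.06 (adjusted p = 0.179). MDM2, a ubiquitin ligase, passed at 0.12 ± 0.04 (adjusted p = 0.0331) with overlapping libraries. It lost the call under library-size and upper-quartile scaling. The call was also lost without either of the vehicle libraries 1 and 2 or of the GSK591 libraries 1 and 3. PRDM1, the plasma cell regulator that BCL6 represses, stayed under 1 CPM in all 6 libraries (0.783, 0.781 and 0.991 against 0.671, 0.708 and 0.574 CPM) and was not tested, and neither was the cyclin gene CCND2.

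More genes of the splicing machinery were higher than lower. The spliceosome removes introns in steps: the U1 and U2 particles mark the splice sites, the U4/U6.U5 tri-snRNP joins to form the catalytic machine, SR proteins bind exons and recruit the particles, and CLK and SRPK kinases control the SR proteins. Over 9 lists of RNA processing genes, 50 of 193 tested members were called higher (25.9%) and 3 lower (1.55%), with a median log2 fold change of 0.03 against 0.00 for all genes. Their median level was 6.88 in average log2 CPM, where the shares of all genes called higher lie between 11.8% and 19.5%. Leaving out single libraries gave 37 to 46 higher and 2 to 4 lower.

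The tri-snRNP list had 10 of 19 members called higher (52.6%) and none lower. PRPF3, which holds the U4 and U6 RNAs together, rose from 73.5, 71.2 and 72.2 CPM to 97.4, 99.1 and 94.0 CPM. That is a log2 fold change of 0.42 ± 0.03 (adjusted p = 2e-07), the smallest p-value of all tested genes. PRPF38B, a relative of a splicing activation factor, rose from 142, 140 and 145 CPM to 179, 179 and 176 CPM (0.32 ± 0.02, adjusted p = 3.84e-07). PPIH, a cyclophilin bound to the U4/U6 particle, rose from 41.6, 45.5 and 42.7 CPM to 52.8, 56.7 and 52.2 CPM (0.32 ± 0.04). In each of these genes every GSK591 library lay above every vehicle library, which their choice among the leading genes required. DDX23, the helicase of the U5 particle, rose by less (0.19 ± 0.02, adjusted p = 5.23e-05).

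SR and SR-like proteins formed the list with the highest share, with 13 of 24 higher (54.2%) and none lower. Their summed level was 8194 to 8269 CPM in vehicle and 8648 to 8700.1 CPM in GSK591 libraries, without overlap. SREK1, a regulator of splice site choice, rose from 143, 131 and 138 CPM to 167, 164 and 158 CPM (0.24 ± 0.03, adjusted p = 0.000109). SRSF4, a classical SR protein, rose from 136, 132 and 137 CPM to 155, 154 and 153 CPM (0.19 ± 0.02). SRRM1, a coactivator in exon bridging, was at 0.17 ± 0.02 and BCLAF1 at 0.16 ± 0.02. The count was 11 or 12 with each library left out in turn and 11 under library-size or upper-quartile scaling.

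Factors that mark the splice sites also held genes called higher and none called lower. The shares called higher were 41.7% in the U1 list and 28.6% in the U2 list. Their median levels were 7.16 and 7.33 in average log2 CPM, where 19.5% of all genes were called higher and 6.06% lower. In the U1 list 5 of 12 members were higher, led by PRPF39, a U1-associated protein, at 63.7, 64.5 and 63.2 CPM against 72.8, 76.1 and 76.0 CPM (0.23 ± 0.03, adjusted p = 7.92e-05). LUC7L, which shapes the choice of 5′ splice sites, was at 0.16 ± 0.03, and SNRNP70, the U1 70K protein, at 0.16 ± 0.02. In the U2 list 6 of 21 were higher, among them U2AF2, which binds the polypyrimidine tract (0.13 ± 0.02), and SF3B1, which holds the branch point (0.11 ± 0.02). That count was 6 without each library in turn.

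Among the kinases that act on splicing factors 4 of 13 were higher (30.8%). Between 5 and 7 in average log2 CPM, where their median level of 6.18 falls, 11.8% of all genes were called higher. PRPF4B, which phosphorylates tri-snRNP proteins, rose from 376, 364 and 383 CPM to 456, 446 and 455 CPM (0.27 ± 0.02, adjusted p = 1.19e-06). CDK13, a kinase of the polymerase tail, was at 0.18 ± 0.04, and CLK1, a kinase of SR proteins, at 0.17 ± 0.05 with overlapping libraries (adjusted p = 0.0299). The CDK13 call was lost with DESeq2 and without GSK591 library 3, and the CLK1 call with DESeq2, under library-size scaling and without GSK591 library 1 or 3 or vehicle library 1 or 2. The list count was 1 without GSK591 library 3 and 2 without GSK591 library 1 or vehicle library 1.

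The Sm and LSm proteins, the core on which PRMT5 acts, were mostly not called. SNRPB, which encodes the Sm protein B, was at 0.09 ± 0.02 (adjusted p = 0.0104). The largest change in the list of 28 was SMNDC1, a spliceosome assembly factor that reads methylated arginines, which rose from 55.2, 53.5 and 53.9 CPM to 70.7, 68.5 and 67.7 CPM (0.35 ± 0.03, adjusted p = 1.46e-06). In all 4 members of this list were higher (14.3%), and 2 without GSK591 library 1. Between 5 and 7 in average log2 CPM, where the list's median level of 5.83 falls, 11.8% of all genes were called higher. The median log2 fold change of the list was 0.01 and turned to -0.01 under library-size scaling.

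A pair of further SR-related genes outside these lists rose with p-values among the smallest. ZRANB2, another splicing gene outside the lists and among the smallest p-values, fell and is given below. RBM39, a U2AF-related factor, rose from 354, 349 and 350 CPM to 404, 402 and 406 CPM (0.20 ± 0.02, adjusted p = 8.39e-06). CLASRP, a protein that binds CLK4, rose from 69.6, 70.3 and 73.7 CPM to 86.5, 84.2 and 85.0 CPM (0.26 ± 0.03, adjusted p = 3.26e-05). In both RBM39 and CLASRP the spread within a group was well inside the gap between groups, and their choice required groups that do not overlap.

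RNA-binding proteins of the hnRNP group did not share the direction, with 3 of 32 higher, 2 lower and a median of 0.00. TAF15, an RNA-binding relative of EWSR1, fell from 323, 327 and 317 CPM to 251, 265 and 253 CPM (-0.33 ± 0.02, adjusted p = 3.84e-07). EWSR1 was at -0.10 ± 0.02 (adjusted p = 0.00426). ZRANB2, a zinc finger protein that binds 5′ splice sites, is not in this list or the other splicing lists. It read 190 CPM in each vehicle library and 159, 162 and 156 CPM in GSK591 libraries (-0.26 ± 0.02, adjusted p = 3.19e-06).

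**Figure D2:**
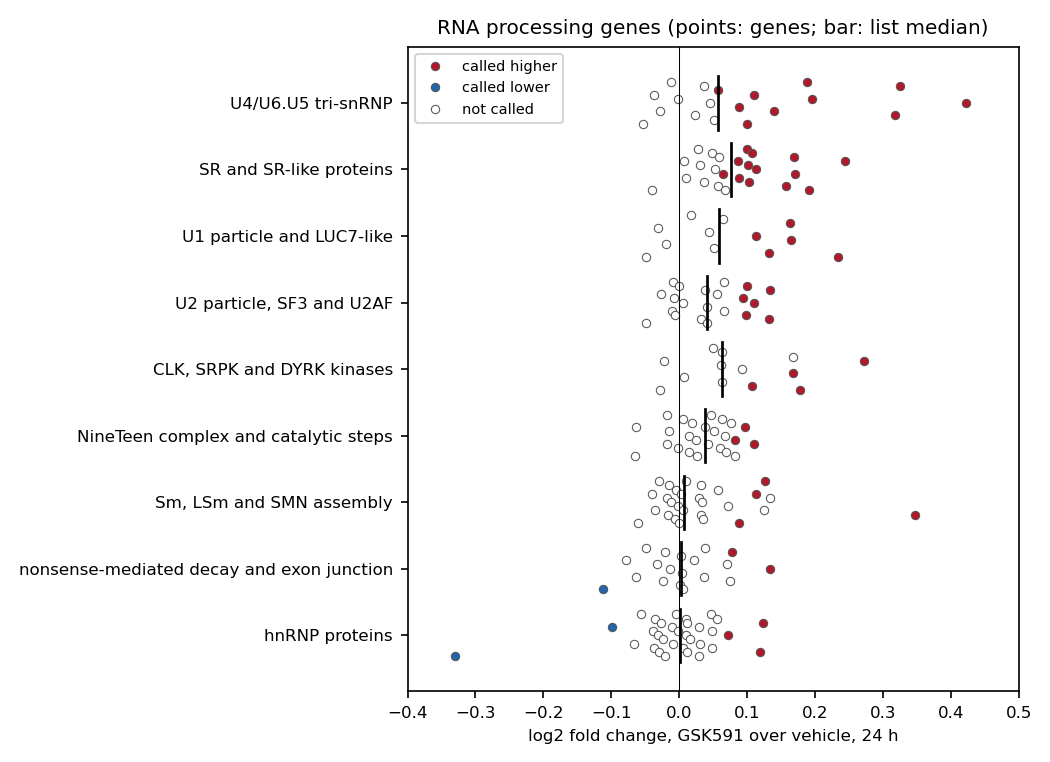
Log2 fold change of GSK591 over vehicle at 24 h (x axis) of each tested gene in 9 RNA processing lists (rows), with genes called higher in red, lower in blue and not called in white, and a bar at the list median. The tri-snRNP, SR, U1, U2 and kinase lists hold no gene called lower, PRPF3 reaches 0.42 and TAF15 lies at -0.33.

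Among genes for DNA replication, nucleotide supply, mitosis and repair, most of those called were lower. Rapidly dividing B cells load and fire replication origins in S phase, make deoxynucleotides on demand, and repair the breaks that replication leaves. Over 6 lists, 55 of 193 members were lower (28.5%) and 7 higher (3.63%), with a median of -0.05. Between an average log2 CPM of 5 and 7, where the median level of 5.98 falls, 8.10% of all genes were called lower. The count of falls was 27 without GSK591 library 1 or vehicle library 2 and 33 without GSK591 library 3, and 64 without GSK591 library 2.

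In the replication list 17 of 50 genes were lower (34.0%) and 1 higher. CDC45, a subunit of the replicative helicase, fell from 29, 30.5 and 29.4 CPM to 25.0, 25.4 and 24.8 CPM (-0.24 ± 0.04, adjusted p = 0.000437). GINS4, its partner in the helicase, fell from 76.8, 79.6 and 76.2 CPM to 65.0, 68.4 and 67.8 CPM (-0.21 ± 0.03, adjusted p = 0.000236). The primase-polymerase genes POLA1 (-0.20 ± 0.03) and POLA2 (-0.18 ± 0.03) fell by about the same. None of these overlapped between groups, as was so for 1830 of the 1937 called genes and for 34.2% of all tested genes. The number lower was 7 without GSK591 library 1, 8 without vehicle library 2 and 10 without GSK591 library 3.

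Nucleotide supply had 10 of 30 genes lower and 3 higher. RRM2, the regulated subunit of ribonucleotide reductase, fell from 261, 278 and 264 CPM to 207, 231 and 212 CPM (-0.30 ± 0.03, adjusted p = 3.69e-05). SHMT1, a folate enzyme, was at -0.23 ± 0.03 and CAD, the start of pyrimidine synthesis, at -0.14 ± 0.02. Falls numbered 5 without vehicle library 2 and 6 without GSK591 library 1.

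For mitosis the calls were all in 1 direction, with 12 of 43 lower (27.9%) and none higher. SPC24, a kinetochore subunit, fell from 11.4, 10.5 and 11 CPM to 7.49, 9.30 and 8.59 CPM (-0.38 ± 0.07, adjusted p = 0.00218). HMMR, a spindle protein, fell from 39.0, 38.1 and 37.9 CPM to 30.4, 34.5 and 34.0 CPM (-0.22 ± 0.04). CDK1, the kinase that starts mitosis, was at -0.12 ± 0.03 and the topoisomerase TOP2A at -0.11 ± 0.02. Without GSK591 library 1, vehicle library 1 or vehicle library 2, 7 were lower. A lower CPM can come from fewer cells in a cycle phase or from less RNA per cell, and bulk libraries cannot tell these apart.

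Promoters of mitotic genes are known for a CHR element (TTTGAA) near a CCAAT box. Stretches of 3 promoters of genes that fell show both, on either strand and in capitals, and a motif on the minus strand reads TTCAAA or ATTGG.
HMMR: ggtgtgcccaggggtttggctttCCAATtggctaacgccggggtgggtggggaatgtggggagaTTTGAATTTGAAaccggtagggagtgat
KIF11: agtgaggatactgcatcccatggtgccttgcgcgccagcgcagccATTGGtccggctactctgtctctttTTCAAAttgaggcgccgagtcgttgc
TOP2A: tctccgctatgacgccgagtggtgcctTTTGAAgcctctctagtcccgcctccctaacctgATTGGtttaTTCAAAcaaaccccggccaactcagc
They lie at chr5:163460540-163460631 on the plus strand, chr10:92593032-92593127 on the plus strand and chr17:40418022-40418117 on the minus strand of GRCh38.p14 in RefSeq's promoter table. Some other stretches around the CHR letters in genes that fell held no CCAAT box. Only a short stretch before each start was searched, so letters elsewhere were not counted. In that stretch the CHR letters were in 6 of the 12 mitotic promoters of genes that fell. They were in 16 of the 25 matched promoters of those not called, against 13.6% of all 27305 promoters in the table. CCAAT was in 9 of 12 and 20 of 25, against 33.0%. The letters were thus at least as common in the mitotic genes that were not called. A match is a description and not a bound site.

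In the list for homologous recombination and Fanconi repair 10 of 34 were lower and 1 higher. FANCI fell from 183, 187 and 181 CPM to 150, 158 and 156 CPM (-0.25 ± 0.02, adjusted p = 1.33e-05), and its clamp partner FANCD2 from 110, 118 and 110 CPM to 92.8, 101 and 97.0 CPM (-0.22 ± 0.03). BRCA1 was at -0.16 ± 0.04 (adjusted p = 0.00771). BRCA2, which acts in repair at breaks, was the member that rose, from 43.8, 40.5 and 38.4 CPM to 51.5, 48.3 and 45.6 CPM (0.25 ± 0.05, adjusted p = 0.00223). The number lower was 4 without GSK591 library 1, 5 without GSK591 library 3 or either of vehicle libraries 1 and 2, and 6 without vehicle library 3. Among 17 damage kinases and mediators 2 were higher (0 to 3 without single libraries) and 2 lower (1 to 3). ATM (0.12 ± 0.03) was higher and CHEK2 (-0.15 ± 0.04) lower, and both calls were lost without GSK591 library 1.

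Of the E2F and RB family, which regulates the cycle genes, 4 of 19 were lower and none higher. E2F7, a repressor that E2F factors induce, fell from 16.1, 16.7 and 16 CPM to 13.0, 14.0 and 13.5 CPM (-0.27 ± 0.05, adjusted p = 0.00145). Falls numbered 1 without vehicle library 2, and 2 without GSK591 library 1 or 3. Of 18 tested BCL2 family genes 1 was higher and 1 lower, with a median of 0.00. Without single libraries 0 or 1 was called in each direction. BAX, a death effector, was the member that rose, at 0.09 ± 0.03 (adjusted p = 0.0244). Its call was lost in 6 of the processing alternatives that keep to 24 h libraries.

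**Figure D3:**
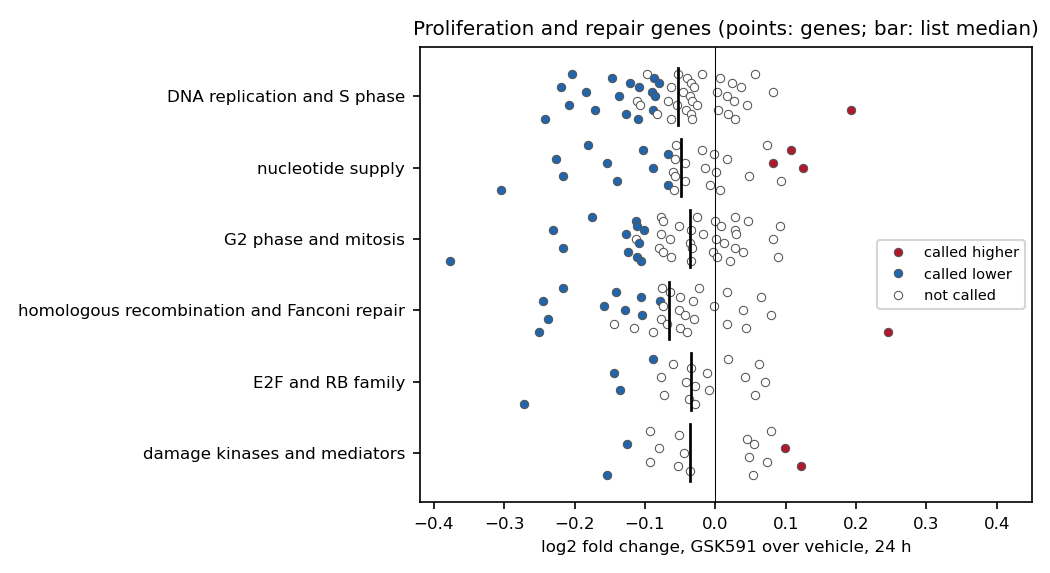
Log2 fold change of GSK591 over vehicle at 24 h (x axis) of each tested gene in 6 proliferation and repair lists (rows), coloured by call as in the plot of RNA processing genes, with a bar at the list median. The list medians lie below 0, SPC24 is lowest at -0.38 and BRCA2 highest at 0.25.

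Of the B cell lists, those for germinal centre identity and antigen receptor signalling had more genes called higher than lower, and most of their members were not called. In the germinal centre list 14 of 44 genes were higher (31.8%) and 3 lower, with a median of 0.04. The list's median level was 7.43 in average log2 CPM, where 19.5% of all genes were called higher and 6.06% lower. NEIL1, a DNA glycosylase expressed in germinal centre B cells, rose from 11.2, 12 and 14.3 CPM to 16.9, 17.8 and 17.5 CPM (0.48 ± 0.07, adjusted p = 0.00026). MYBL1, the MYB factor of germinal centre cells, rose from 93.7, 88.6 and 95.7 CPM to 113, 110 and 112 CPM (0.27 ± 0.03, adjusted p = 2.52e-05). Both had groups that did not overlap, which their choice among the leading genes required. RGS13, which damps chemokine signals, was at 0.15 ± 0.03. The number higher was 8 without GSK591 library 1 or vehicle library 2, 9 without GSK591 library 3 or vehicle library 1, 9 under library-size scaling and 8 under upper-quartile scaling.

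For signalling next to the B cell receptor 11 of 35 genes were higher (31.4%) and 1 lower. Their median level was 7.06 in average log2 CPM, where 19.5% of all genes were called higher and 6.06% lower. CD79B, the signal-bearing chain of the receptor, read 737, 724 and 749 CPM against 823, 781 and 819 CPM (0.13 ± 0.02, adjusted p = 0.000936). CD72, an inhibitory coreceptor, read 174, 171 and 176 CPM against 198, 192 and 193 CPM (0.16 ± 0.02, adjusted p = 0.00026). Without GSK591 library 1 or vehicle library 1 the count of higher genes was 7. The receptor kinase BLK and the ubiquitin ligase CBLB were each at 0.14 ± 0.03.

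NF-kB regulators had 7 of 30 genes higher (23.3%) and 1 lower. Between 5 and 7 in average log2 CPM, where their median level of 5.48 falls, 11.8% of all genes were called higher and 8.10% lower. NFKBID, a nuclear IkB protein that acts on NF-kB target genes, rose from 31.0, 29.7 and 35.1 CPM to 44.0, 41.2 and 43.8 CPM (0.43 ± 0.05, adjusted p = 5.23e-05). IKBKB, a kinase of the IkB proteins, was at 0.13 ± 0.02 and BCL3, another nuclear IkB protein, at 0.18 ± 0.04, a call lost without GSK591 library 1 or vehicle library 1. The number higher was 3 without vehicle library 1 or 2 or GSK591 library 1 or 3, and 11 without GSK591 library 2. CFLAR, an inhibitor of caspase activation, was the member that fell (-0.23 ± 0.06, adjusted p = 0.0118), a call lost without GSK591 library 3.

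Of BCL6 and its corepressors 6 of 22 were higher (27.3%) and none lower. Their median level was 6.56 in average log2 CPM. The 6 rises lay between 0.07 and 0.12, among them HDAC1 at 0.07 ± 0.02 and TBL1XR1, a subunit of the NCOR complex, at 0.11 ± 0.03. Of all genes between 5 and 7 in average log2 CPM, 11.8% were called higher and 8.10% lower. The corepressor count was 1 without GSK591 library 3, 2 without vehicle library 2, and 3 without GSK591 library 1 or vehicle library 1. It was 2 under library-size and upper-quartile scaling. Of genes that BCL6 is known to repress 3 of 27 were higher (11.1%) and 1 lower. Their median level was 5.04 in average log2 CPM. Between 5 and 7, 11.8% of all genes were called higher, and between 3 and 5, 3.81%. NFKB1, an NF-kB subunit, was at 50.4, 48.3 and 51.1 CPM against 55.0, 52.2 and 54.8 CPM (0.11 ± 0.03, adjusted p = 0.0269). The NFKB1 call was lost without vehicle library 1 or 2 or GSK591 library 1 or 3, and under library-size and upper-quartile scaling. The number higher was 1 without GSK591 library 1 or 3 or vehicle library 2 and 5 without GSK591 library 2, and the number lower ranged from 0 to 3.

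Genes of the plasma cell and secretory programme had 7 of 31 lower (22.6%) and 3 higher. Between 5 and 7 in average log2 CPM, where their median level of 6.14 falls, 8.10% of all genes were called lower and 11.8% higher. XBP1, the factor that builds the secretory apparatus, fell from 17.3, 17.1 and 15.5 CPM to 13.8, 12.9 and 12.7 CPM (-0.34 ± 0.06, adjusted p = 0.000648). The chaperone HSPA5, which works in the endoplasmic reticulum, fell from 434, 436 and 428 CPM to 382, 391 and 393 CPM (-0.16 ± 0.02), and the chaperone CALR was at -0.12 ± 0.02. EDEM1, which sends misfolded proteins to degradation, rose (0.11 ± 0.02, adjusted p = 0.00464). Leaving out single libraries gave 5 to 7 lower.

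For antigen presentation, 5 class II and 2 class I genes were called. HLA-DOA, a modulator of peptide loading on MHC class II, fell from 200, 205 and 200 CPM to 176, 181 and 173 CPM (-0.19 ± 0.02, adjusted p = 9.72e-05), and HLA-DOB, the other chain of the same dimer, was at -0.11 ± 0.02. Of 18 class II genes 3 were lower and 2 higher, and of 17 class I genes 2 were lower. Both class II rises were lost in 5 of the 6 fits without 1 library and under library-size and upper-quartile scaling, and 1 class II gene was higher without vehicle library 2. Without GSK591 library 3, vehicle library 2 or vehicle library 3, 1 class I gene was lower. Interferon-stimulated genes held 4 of 22 higher and 2 lower. TRIM22, an antiviral TRIM protein, and SP110, a nuclear body protein, were each at 0.09 ± 0.03, and the antiviral effectors MX2 (-0.15 ± 0.03) and OAS2 (-0.16 ± 0.03) were the falls. The number higher was 0 without GSK591 library 1 or vehicle library 1 and under both other scalings, 1 without GSK591 library 3 or vehicle library 2 and 2 without vehicle library 3, while 2 or 3 were lower. Immediate early genes, which report recent signalling, had 1 of 29 higher and 1 lower, with 0 or 1 higher and 0 to 3 lower without single libraries.

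For the MYC network and ribosome biogenesis 11 of 47 genes were higher and 1 lower, led by NOP2, a ribosomal RNA methyltransferase, at 234, 234 and 238 CPM against 264, 261 and 264 CPM (0.16 ± 0.02, adjusted p = 0.000143). That count was 5 without GSK591 library 1 or 3 or vehicle library 2, and 6 without vehicle library 1. Of genes for the integrated stress response and amino acid supply 8 of 40 were lower and 2 higher. CBS, of the transsulfuration pathway, was at -0.24 ± 0.04, the stress factor ATF5 at -0.22 ± 0.04 and PSAT1, of serine synthesis, at -0.16 ± 0.03. The number lower was 4 without GSK591 library 1 and 5 without GSK591 library 3 or vehicle library 1.

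In metabolism, sterol genes had 7 of 31 higher (22.6%) and none lower, with SREBF2, their master regulator, at 0.09 ± 0.02. Their median level lay at the lower edge of the genes with an average log2 CPM of 7 or more. Of all genes at that level 19.5% were called higher, and between 5 and 7 the share was 11.8%. The count of higher sterol genes was 1 without GSK591 library 1 or 3, 2 without vehicle library 2 and 3 under both other scalings. In fatty acid metabolism 5 of 29 were lower and 2 higher, with 4 to 6 lower and 0 to 2 higher without single libraries. HSD17B8, with a part in mitochondrial lipid synthesis, fell from 15.8, 17.1 and 15.9 CPM to 10.3, 12.9 and 11.8 CPM (-0.48 ± 0.07, adjusted p = 0.000178). Cytosolic ribosomal protein symbols had 6 of 80 higher (7.50%) and 2 lower, and mitochondrial ones 4 of 76 higher and 6 lower, MRPS25 at -0.28 ± 0.03. The cytosolic counts did not hold, with 0 to 11 higher and 0 or 1 lower without single libraries and 0 higher under upper-quartile scaling, and 3 mitochondrial ones were lower without GSK591 library 3. Glycolysis and TCA cycle genes were at 3 of 42 in each direction, with 1 to 4 higher and 0 to 4 lower without single libraries.

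The other lists had few calls, and most of their counts changed when single libraries were left out. Of all genes tested 8.53% were called higher and 8.59% lower. Of 41 translation factors 5 were higher (1 to 4 without single libraries) and 1 lower (0 to 2), and of 31 proteasome subunits 4 were higher (1 to 4) and none lower. These are 12.2% and 12.9%, below the 19.5% of all genes called higher at their median levels of 8.49 and 7.15 in average log2 CPM. Nuclear genes of the respiratory chain and ATP synthase had 8 of 76 higher (2 to 6) and 4 lower (1 to 5), and tRNA synthetases 2 of 34 higher (2 or 3) and 4 lower (2 to 5). Kinesins had 5 of 28 lower (2 to 5) and 1 higher (0 or 1), and replication-dependent histone genes 2 of 10 higher (0 to 2) and 1 lower (0 or 1). In the list of arginine methyltransferases other than PRMT5, 1 of 8 was higher and 1 lower, and both counts were 0 without GSK591 library 1 or 3 or vehicle library 2. Genes for the catalytic steps of splicing had 3 of 25 higher (0 to 3) and none lower. Of 19 genes for nonsense-mediated decay and the exon junction complex 2 were higher (1 or 2) and 1 lower (0 or 1).

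Among chromatin regulators, 11 of 32 lysine methyltransferases and demethylases were higher (34.4%) and 1 lower. Between 5 and 7 in average log2 CPM, where their median level of 6.81 falls, 11.8% of all genes were called higher and 8.10% lower. SETD1B, which methylates lysine 4 of histone H3, read 82.7, 82.5 and 86.0 CPM against 94.8, 89.7 and 92.7 CPM (0.14 ± 0.03, adjusted p = 0.003). SETD2, which methylates lysine 36, read 232, 217 and 224 CPM against 245, 239 and 245 CPM (0.11 ± 0.03, adjusted p = 0.00534). KDM1B, a flavin-dependent demethylase, was the member that fell (-0.19 ± 0.03, adjusted p = 0.000937). The number higher was 3 without vehicle library 2, 5 without GSK591 library 1, 7 without GSK591 library 3 or vehicle library 1, and 5 under both other scalings. SWI/SNF remodelling genes had 3 of 24 in each direction, but none was higher without GSK591 library 3 and 1 without GSK591 library 1 or vehicle library 1. Polycomb and DNA methylation genes had 5 of 28 higher and 1 lower, with 0 to 7 higher and 0 or 1 lower without single libraries.

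**Figure D4:**
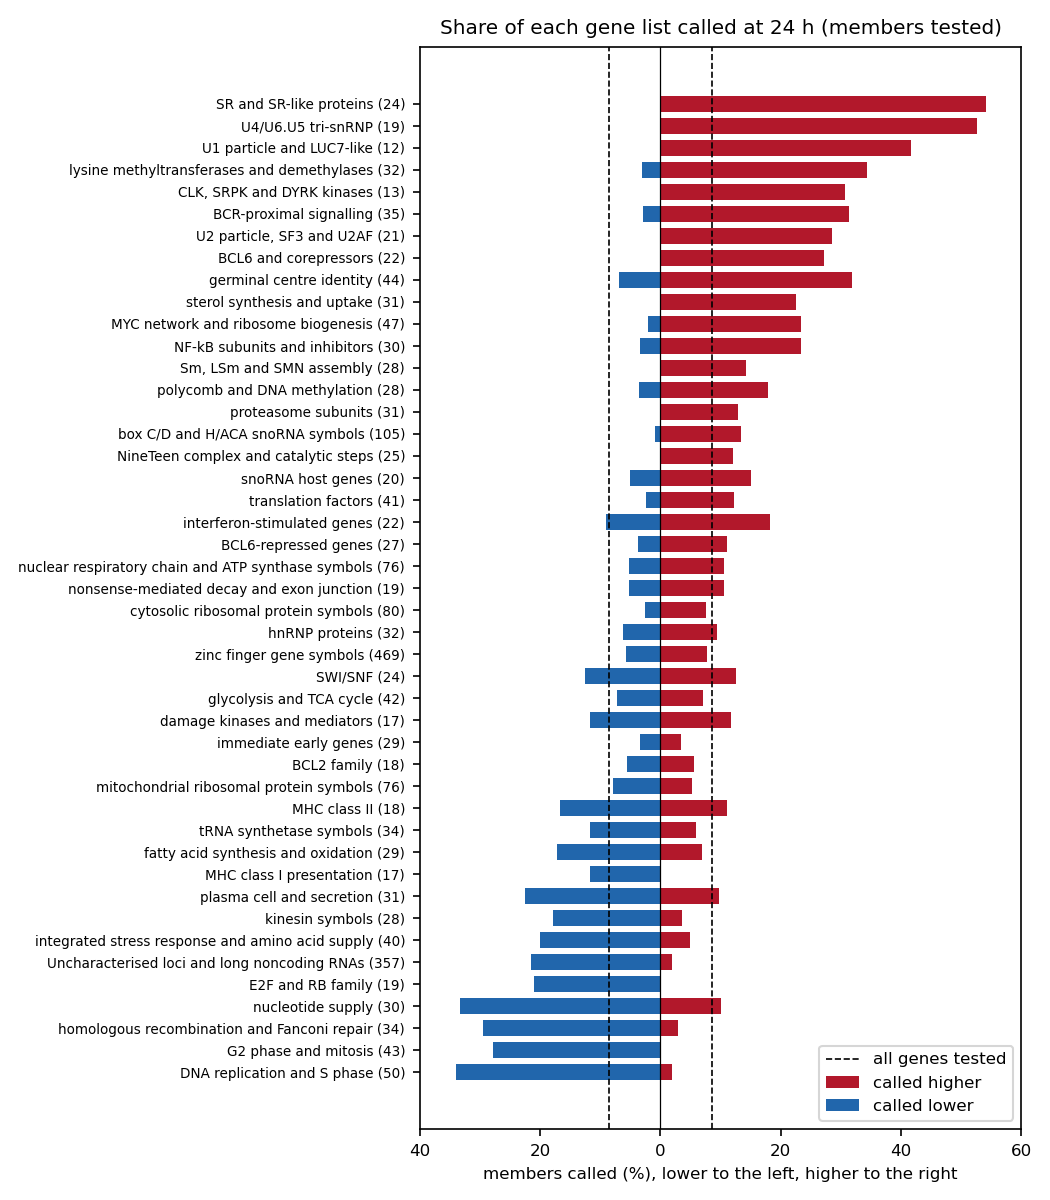
Share of each gene list called at 24 h (x axis, percent of tested members), higher to the right in red and lower to the left in blue, for the lists reported that have at least 12 tested members (number in brackets). Dashed lines mark the shares of all genes tested, 8.53% higher and 8.59% lower. SR proteins reach 54.2% higher and the replication list 34.0% lower.

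Most small nucleolar RNA symbols were not called, and those called were higher with 1 exception. Of 105 tested symbols 14 were higher (13.3%), 1 was lower and 90 were not called, although their median average log2 CPM was 1.2, where 1.44% of all genes rose. SNORD104, the first of the printed sequences, rose from 12.8, 13.4 and 13.2 CPM to 17.5, 18.7 and 16.4 CPM (0.42 ± 0.05, adjusted p = 0.000116). SNORD43 rose from 0.575, 0.601 and 0.732 CPM to 1.39, 1.27 and 1.35 CPM (1.06 ± 0.16, adjusted p = 0.000378). It reached 1 CPM in GSK591 libraries alone and so was tested only through the group where it is high. SNORD96A was at 0.33 ± 0.07. SNORD31 fell from 11.6, 12.1 and 12.1 CPM to 9.60, 10.5 and 9.73 CPM (-0.26 ± 0.06, adjusted p = 0.00484). The number higher was 6 without GSK591 library 1 or 3, 7 without vehicle library 1 or 2 and 8 without vehicle library 3, and DESeq2 called 5 higher.

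Most snoRNAs sit in introns of host genes, so their host genes are given beside them. Of the 14 higher symbols, 9 lay in 1 tested host gene. The host was called higher in 2 of these, both in TAF1D (0.11 ± 0.03), was not called in 7 and was lower in none. The median host change was 0.04. In a list of 20 tested snoRNA host genes 3 were higher (0 to 3 without single libraries) and 1 lower (1 to 3). RPL3, the host of SNORD43, was at 0.00 ± 0.02 (adjusted p = 0.996). Whether the reads come from mature snoRNA or from unspliced host RNA was not tested.

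Symbols of uncharacterised loci and long noncoding RNAs (LOC, LINC and antisense names) were mostly not called, and far more of them were lower than higher. Of 357 tested, 77 were lower (21.6%) and 7 higher (1.96%), with a median of -0.12, against 9.23% lower among all genes between 1 and 3 in average log2 CPM, where their median of 2.2 falls. LOC730101 fell from 12.5, 14.8 and 14.0 CPM to 8.89, 10.1 and 9.63 CPM (-0.53 ± 0.07, adjusted p = 0.000116). LOC283710 fell from 29, 32.5 and 32.2 CPM to 23.3, 22.8 and 22.3 CPM (-0.45 ± 0.05, adjusted p = 1.1e-05). LOC100289092, at 1.13, 1.14 and 1.57 CPM against 0.505, 0.678 and 0.560 CPM, had a log2 fold change of -1.14 ± 0.19 but reached 1 CPM in vehicle libraries alone, and so was tested only through the group where it is high. Without GSK591 library 1, 49 were lower. Zinc finger symbols had 36 of 469 higher and 27 lower. Their number higher was 14 without GSK591 library 1 or 3, 17 without vehicle library 2 and 23 without vehicle library 1, and the number lower 16 without GSK591 library 1 and 17 without GSK591 library 3. Library-size scaling gave 19 higher and 36 lower, and upper-quartile scaling 20 and 41.

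The largest falls outside these groups were in genes with varied roles. PDE6B, a cGMP phosphodiesterase subunit, fell from 22.2, 23.4 and 21.0 CPM to 15.2, 16.2 and 15 CPM (-0.52 ± 0.05, adjusted p = 8.26e-06). ERV3-1, an endogenous retroviral envelope gene, fell from 56.6, 55.8 and 61.2 CPM to 42.2, 42.5 and 39.7 CPM (-0.48 ± 0.04, adjusted p = 1.11e-06). ZNF117 overlaps ERV3-1 on the same strand and fell too (-0.34 ± 0.03), so these are not independent. ENTPD5, a nucleotidase of the endoplasmic reticulum, was at -0.46 ± 0.07, TMEM218 at -0.44 ± 0.08, LRRCC1, a centrosome protein, at -0.43 ± 0.06 and INCA1 at -0.43 ± 0.06. ABHD14B fell from 88.3, 93.2 and 83.2 CPM to 65.7, 68.0 and 62.8 CPM (-0.43 ± 0.04, adjusted p = 2.88e-06) and overlaps PCBP4 and ACY1.

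Among the largest rises outside these groups were genes that share their locus with another. TUBGCP4, of the microtubule-nucleating ring complex, rose from 49.3, 45.8 and 48.5 CPM to 61.5, 59.5 and 61.1 CPM (0.34 ± 0.03, adjusted p = 6.85e-06) and overlaps ZSCAN29, among others, on the opposite strand. ZBED6, a transposon-derived factor encoded within ZC3H11A, was at 0.34 ± 0.04, and NEIL1 overlaps MAN2C1 on the opposite strand. Whether counting used strand is not stated, so reads of such pairs cannot be told apart. The same holds for the many named genes that overlap a gene on the opposite strand in the GENCODE models. Among them are WDR77, RIOK1, MDM2, PRPF39, PRPF4B, TAF15, EWSR1, TAF1D, SHMT1, SPC24, FANCI, FANCD2, BRCA1, ATM, CHEK2, CD72, ATF5, MRPS25, ENTPD5, ABHD14B and ENPP3. PRMT5, ZRANB2, HMMR, TBL1XR1, CFLAR, SREBF2 and ANKRD12 overlap a gene named as an antisense RNA. ENPP3, an ectonucleotidase, rose from 31.4, 29.3 and 32.8 CPM to 40.1, 37.7 and 40.0 CPM (0.33 ± 0.04, adjusted p = 0.000109), ANKRD12 was at 0.32 ± 0.04 and COMMD10 at 0.31 ± 0.04.

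**Figure D5:**
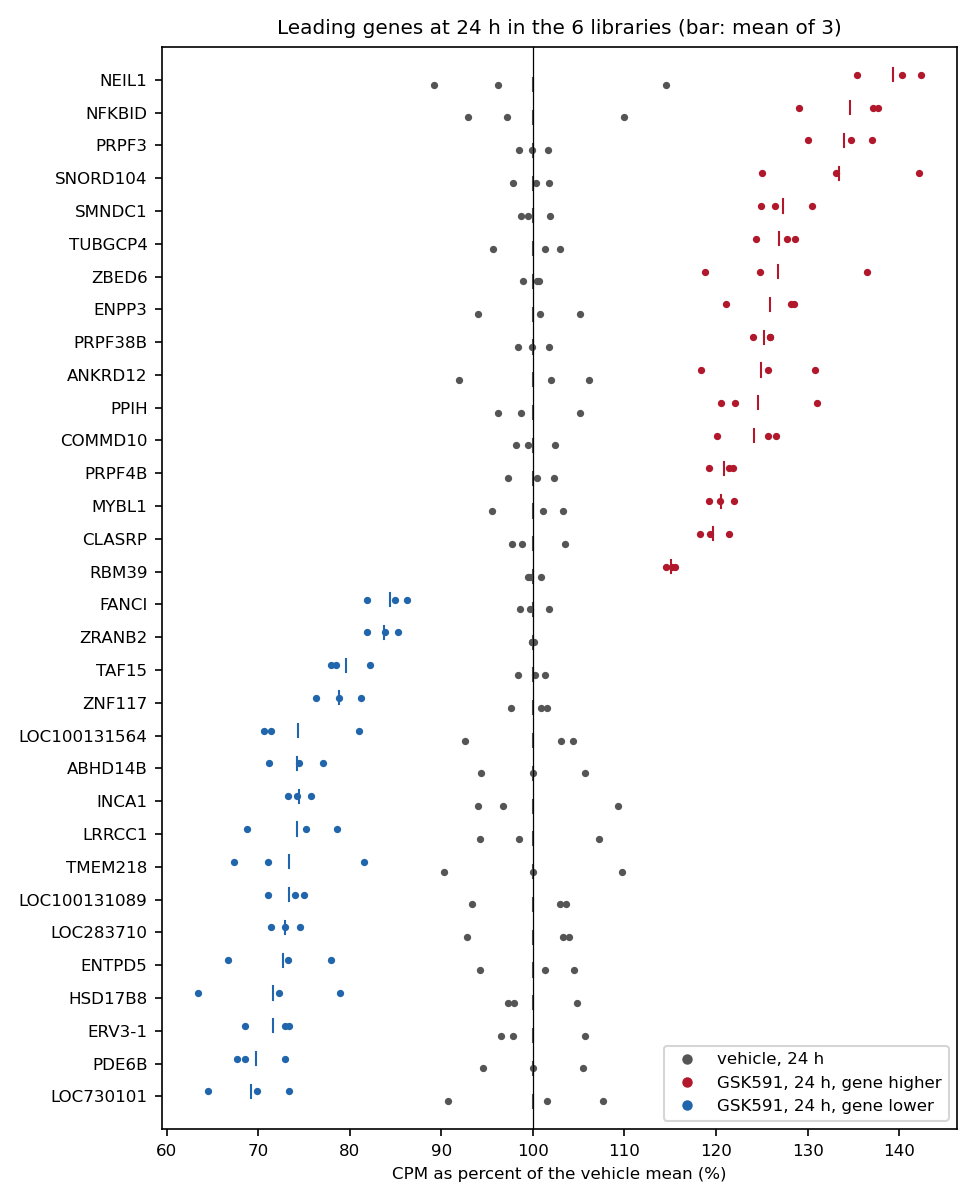
CPM in each of the 6 libraries at 24 h as a percent of the gene's vehicle mean (x axis) for the leading genes by size of change or p-value (rows), with vehicle in grey, GSK591 in red for rises and blue for falls, and a bar at each mean of 3. The groups do not overlap in any row, which the choice of these genes required, and NEIL1 and LOC730101 stand at the ends.

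Gene models were compared by call. Of the tested genes 10141 (89.6%) matched a GENCODE model by symbol. Among matched protein-coding genes at an average log2 CPM of 5 or more, the median span was 38.3 kb and the median exon number 13 in 752 genes called higher, 30.6 kb and 11 in 382 called lower, and 33.7 kb and 11 in 4168 not called. These are descriptions over genes, with no test.

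Most genes called at 24 h had the same sign at 96 h, in libraries that share no sample with them. Of the 1937 genes called at 24 h, 1929 were tested at 96 h and 1732 had the same sign there, 860 of them higher and 872 lower. In 1282 the same direction was called at 96 h and in 31 the opposite. The median size of change of the 24 h genes was 0.32 at 96 h, against 0.14 at 24 h. Across the 11264 genes tested at both times the log2 fold changes had a Pearson correlation of 0.55, as a description over genes that share libraries. The 96 h vehicle library 1 holds 547893020 counts, against 48477456 to 64363186 in the other 96 h libraries.

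A fit over all 12 libraries tested the difference between the effects at 96 h and 24 h, and 3317 of 11786 genes were called (28.1%). Of the genes called at 24 h, 754 differed, 650 of them with the same sign and a larger size at 96 h and 100 with the opposite sign. RRM2 was at -1.77 at 96 h (difference -1.47, adjusted p = 0.0016), CDC45 at -1.26 (difference -1.02) and MYBL1 at 1.21 (difference 0.93). PRPF3 was at 0.89 (difference 0.46, adjusted p = 0.00029) and LUC7L at 1.35 (difference 1.18). For PPIH the difference was -0.03 (adjusted p = 0.83) and for COMMD10 0.04 (adjusted p = 0.78). The number of differences was 2028 without the 24 h GSK591 library 2, 2063 without the 24 h vehicle library 3, 5536 without the 96 h GSK591 library 2 and 3106 without the 96 h vehicle library 1.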

How the data were processed

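Poly(A) RNA was sequenced from 12 SUDHL6 libraries. The authors deposited whole-number counts per gene symbol in 1 table for each time. The submitters' processing notes name STAR, HTSeq, edgeR and hg19 (GRCh37), with no versions or strand use. The authors' deposited table for 24 h, with log2 fold changes and p-values, lists 1811 genes with FDR under 0.05, of which 1502 were called here. Depth, 49933469 to 57925196 counts per library at 24 h, is behind every value, and SE covers the libraries' spread.

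From the counts, genes with CPM of at least 1 in 3 of the 6 libraries were kept, scaled by TMM and tested with edgeR 4.0.16 (glmQLFit, glmQLFTest, R 4.3.3), with the 24 h libraries alone in the fit, with Benjamini-Hochberg adjustment at 0.05. SE is the absolute log2 fold change over the root of F. glmTreat tested changes beyond 1.1-fold, and a 12-library fit the difference between times. CPM values are scaled by TMM, except for cell type markers and genes below the filter, which are plain CPM. The code was tested on simulated data. Alternatives were other scalings and filters, DESeq2 1.42.0, limma-voom (limma 3.58.1), a replicate block, all 12 libraries, and each library left out.

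Named genes were the 8 of the study's question, up to 4 called members per list and called genes of 2-fold or more. Also named were the 12 largest rises and falls and 8 smallest p-values each way among called, non-overlapping genes with average log2 CPM of at least 3. The last were 8 genes with opposite signs at the 2 times, those with the largest differences each way among genes called at 24 h at that level. SNORD96A, RPL3 and the genes whose overlap is given were named after their values were seen. The members and lists were chosen with earlier results of these data known. Sequences came from GENCODE transcripts and RefSeq's promoter table, both on GRCh38, matched by symbol since the count tables hold no coordinates. Some genes and 1 gene list are not reported here.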

Additional observations from a re-analysis of the deposited data

Results flagged for a closer look

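In 100 genes called at 24 h the GSK591 effect had the opposite sign at 96 h, with a difference that passed the test (96 h minus 24 h log2 fold change, edgeR over 12 libraries). The 8 given here had the largest differences in each direction among those with average log2 CPM of at least 3. Those called lower at 24 h and positive at 96 h were H1FX, a linker histone gene (-0.35 at 24 h, 0.47 at 96 h, difference 0.82), NDRG4 (-0.23 and 0.57, difference 0.78), LOC100506123 (-0.24 and 0.38, difference 0.62) and LOC100506686 (-0.30 and 0.28, difference 0.57). H1FX read 9.13, 11.4 and 10.0 CPM in vehicle and 8.11, 8.28 and 7.55 CPM in GSK591 libraries at 24 h.

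Of these 8, those called higher at 24 h and negative at 96 h were TNF, the inflammatory cytokine (0.18 and -0.42, difference -0.61), C21orf56 (0.16 and -0.45, difference -0.61), LYAR, a nucleolar protein (0.09 and -0.41, difference -0.51), and PRMT1, the main asymmetric arginine methyltransferase (0.07 and -0.39, difference -0.47). PRMT1 read 305, 307 and 311 CPM in vehicle and 324, 324 and 322 CPM in GSK591 libraries at 24 h. The 24 h calls of TNF, LYAR and PRMT1 were each lost in 8 or 10 alternatives. All 8 differences stayed past the threshold in every alternative run for them.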

How the results depend on the processing

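The 1937 calls (965 higher, 972 lower; 122 beyond 1.1-fold) kept their sign in every alternative in which they were tested, but their number did not hold. All 12 libraries in 1 fit gave 33 calls, 17 higher and 16 lower. Library-size scaling gave 575 higher and upper-quartile scaling 558. Leaving out single libraries gave 973 to 2184 called, 460 to 1065 higher, 512 to 1119 lower, 50 to 209 beyond 1.1-fold, and 2028 to 5536 differences between times. Changes beyond 1.1-fold numbered 201 without the filter. DESeq2 called 1403, limma-voom 1915, and a fit without both libraries numbered 2, chosen after seeing the data, 1368. The replicate block gave 2809 calls and 221 beyond 1.1-fold. Deviations of same-numbered libraries correlated at 0.09, 0.49 and 0.09, so the numbers were not taken as pairs. Vehicle library 2 correlated best with GSK591 library 2, but vehicle 1 with GSK591 3 (0.21) and vehicle 3 with GSK591 1 (0.16), a hint from the data, not the design. PRMT5 turned from -0.00 to 0.00 under filterByExpr, limma-voom and no filter (0.00122, 0.000625 and 0.00119), to 0.0152 without both libraries numbered 2, and ranged from -0.0328 to 0.0189 without single libraries. Depth was similar across the 24 h libraries, and genes near 1 CPM carry the widest errors. The causes were not tested.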
